A study of Drosophila melanogaster with 6 samples.

Results

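The 32 genes described here encode the constitutive subunits of the 26S proteasome of Drosophila melanogaster. They comprise 7 core alpha genes (Prosalpha1 to Prosalpha7), 7 core beta genes (Prosbeta1 to Prosbeta7), 6 Rpt genes (Rpt1 to Rpt6) and 12 Rpn genes (Rpn1 to Rpn3 and Rpn5 to Rpn13). Within the set they were taken by subunit identity, but the set itself was chosen with earlier results of these data known. The paralogs with an R or T after the subunit's name, most of them known from the male germline, were left out of the 32. All 32 were found by symbol among the 13955 genes counted. All 32 also passed the filter on low counts, which kept 8361 genes.

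RNA was sequenced from larval wing discs, the epithelial sacs that form the adult wing, in 3 control libraries and 3 libraries with overexpression of Nrf2. Nrf2 is encoded in flies by cnc, whose long isoform is CncC. The comparison asks which genes change when this transcription factor is raised. The input was 500 ng of total RNA per library, all 6 are marked 28 in the labels, and the Methods give 28 °C as the temperature at which larvae were kept.

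The labels describe the control libraries as wild type, under titles that name yw, and the other libraries as CncC overexpression. The Methods instead give the control larvae single copies of the transgenes hs-FLP, tub>>>Gal4, tub-Gal80ts and UAS-CD8-GFP, and give the Nrf2 overexpression larvae the same with UAS-nrf2 opposite tub-Gal80ts. All larvae were therefore, by the Methods, wandering females of the last larval instar that carried a heat-shock recombinase, a tubulin driver whose cassette between promoter and Gal4 had already been flipped out of the stock, a membrane GFP and a temperature-sensitive repressor of Gal4. Whether the controls were yw or carried the driver is not settled by the sources used here, so the transgenes of the driver line and the overexpression cannot be told apart if the labels hold. Neither source says whether the libraries came from separate crosses or how many animals were pooled, so p-values measure the spread between these libraries, which may be technical.

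The 26S proteasome degrades proteins tagged with ubiquitin. Its 20S core is a barrel whose outer rings, built of alpha subunits, gate the entry channel and whose inner rings, built of beta subunits, hold the proteolytic sites. The 19S cap has a base, in which the Rpt ATPases unfold and thread the substrate beside the large Rpn1 and Rpn2, and a lid of Rpn subunits that includes the deubiquitinase Rpn11. Transcription factors of the Cap'n'collar family, to which CncC belongs, are known as activators of proteasome genes in flies and mammals.

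The overexpressed gene was examined first. The normalized count of cnc, a count scaled by TMM to libraries of equal effective size, was 1951, 1861 and 1920 in control and 82221, 141717 and 171215 in Nrf2 overexpression. Its groups did not overlap, and Nrf2 overexpression replicate 1 was the lowest of its group. The libraries were of nearly the same depth, between 16464410 and 16682764 counts.

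All 32 subunit genes were higher in Nrf2 overexpression than in control. The log2 fold change ran from 0.42 for Rpn6 to 1.01 for Prosalpha3, which are folds of 1.34 and 2.02, and its median was 0.81, a fold of 1.76. In all, 32 of 32 were called higher at an adjusted p below 0.05 and 0 were called lower by edgeR's quasi-likelihood test, whose Benjamini-Hochberg adjusted p ran from 2.69e-05 to 0.00404 over these genes. DESeq2 and limma-voom also called 32 higher and 0 lower. Across all genes tested, 30.9% were called higher and 31.6% lower, and the median log2 fold change was -0.01. A fold of at least 1.4 was passed by 29 of the 32, against 20.5% of all genes, and the genes below it were Rpn6, Rpn7 and Rpn12. The stricter fold of 1.5 was passed by 28, and that of 2 by Prosalpha3 and Rpn13 alone.

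**Figure D1:**
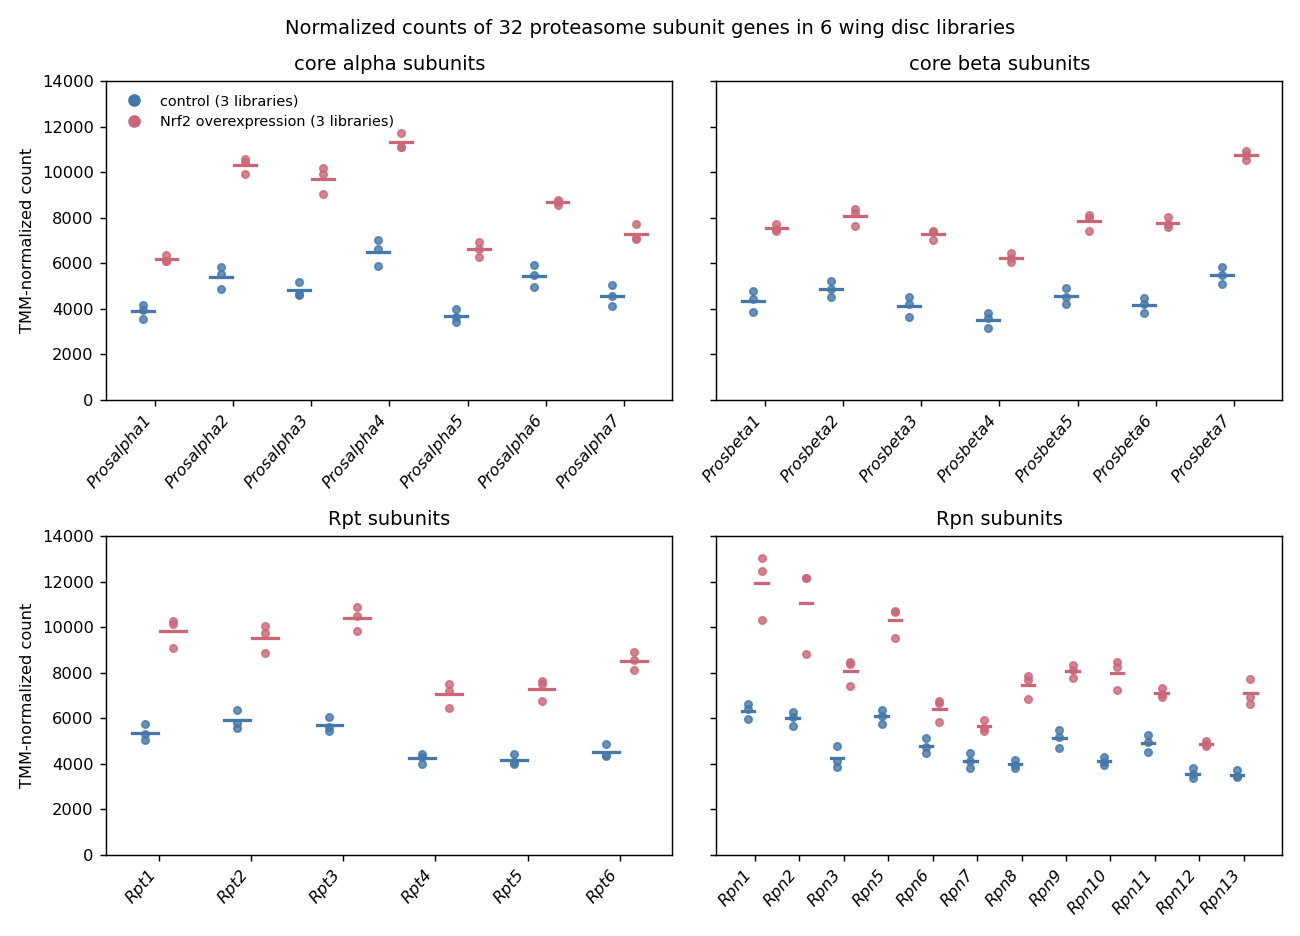
Normalized counts of the 32 subunit genes, in panels for the core alpha, core beta, Rpt and Rpn genes, with the gene on the horizontal axis and the TMM-normalized count on the vertical axis. Each point is 1 library, blue for the 3 control and red for the 3 Nrf2 overexpression libraries, and each bar is the mean of 3, and for every gene the red points lie above the blue points.

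The plot of normalized counts by library shows that the groups were separate for every gene. The lowest Nrf2 overexpression library lay above the highest control library in 32 of 32, whereas 33.6% of all genes tested were arranged in this way. The narrowest separation was 1.15-fold, in Rpn6, between 5849 in Nrf2 overexpression replicate 1 and 5108 in control replicate 2. Together the 32 genes took 0.873%, 0.931% and 0.881% of all counts in the 3 control libraries and 1.53%, 1.69% and 1.64% in the Nrf2 overexpression libraries. The exact 95% binomial intervals were narrow, such as 0.869% to 0.878% for control replicate 1, and cover counting error only.

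Many genes in these discs changed more than the subunit genes did. By log2 fold change the 32 genes ranked between 600 and 2100 of 8361. By level they belonged to the upper end, between the 91.8 and the 97.1 percentile of the mean normalized count. Their standard errors were small, between 0.087 and 0.133 on the log2 scale.

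The alpha subunits form the outer rings of the core. All 7 alpha genes were higher, with a median log2 fold change of 0.80 and a range from 0.67 to 1.01. Prosalpha3 encodes the subunit whose tail, in yeast, helps to close the entry channel, with its gene at 20994900 to 20996118 on chromosome 2R (BDGP6.54). Its normalized count was 4642, 5170 and 4615 in control and 9036, 9925 and 10183 in Nrf2 overexpression. Every Nrf2 overexpression library was well above every control, and the log2 fold change was 1.01 (SE, standard error, 0.098, adjusted p = 2.74e-05, edgeR), the highest of the 32. Prosalpha1 was the lowest of the alpha genes, with 3563, 4180 and 3937 in control and 6109, 6353 and 6079 in Nrf2 overexpression. Its groups were also separate, with a log2 fold change of 0.67 (SE 0.093, adjusted p = 0.000207, edgeR).

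The value of Prosalpha1 is uncertain, because its counts may be divided with a near-identical copy. On the minus strand of chromosome 2R (BDGP6.54), Prosalpha1 spans 7827303 to 7828678 and its paralog Prosalpha1R spans 7830413 to 7831771. The ratio of their counts was between 0.984 and 1.02 in each of the 6 libraries. When the counts of the pair were summed, an analysis added after the data were seen, the log2 fold change was 0.67 with an adjusted p of 0.000254 by edgeR.

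The beta subunits form the inner rings and carry the active sites. All 7 beta genes were higher, with a median log2 fold change of 0.82 and a range from 0.73 to 0.97. Their standard deviation of 0.08 was the smallest of the 4 groups of subunits. The 3 catalytic subunits were higher by a similar degree. Prosbeta1, with the caspase-like site, had 3837, 4754 and 4422 normalized counts in control and 7702, 7510 and 7427 in Nrf2 overexpression, a log2 fold change of 0.80 (SE 0.10, adjusted p = 0.000119, edgeR).

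Prosbeta2, with the trypsin-like site, had 4519, 5220 and 4882 in control and 7638, 8390 and 8213 in Nrf2 overexpression. Its log2 fold change of 0.73 (SE 0.096, adjusted p = 0.000143, edgeR) was the lowest of the beta genes, with no overlap between groups. Prosbeta5, with the chymotrypsin-like site that most proteasome inhibitors bind, had 4222, 4885 and 4508 in control and 7410, 7973 and 8117 in Nrf2 overexpression. Its log2 fold change was 0.79 (SE 0.096, adjusted p = 9.20e-05, edgeR). Differences among the 3 catalytic genes were not tested. The highest of the beta genes was Prosbeta7, which has no proteolytic site. It had 5070, 5845 and 5478 in control and 10526, 10933 and 10753 in Nrf2 overexpression, a log2 fold change of 0.97 (SE 0.094, adjusted p = 2.82e-05, edgeR).

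The Rpt genes encode the ATPases of the base. All 6 were higher, with a median log2 fold change of 0.84 and a range from 0.69 to 0.91. Rpt6 was the highest of them, with 4332, 4874 and 4370 normalized counts in control and 8112, 8552 and 8926 in Nrf2 overexpression. Its log2 fold change was 0.91 (SE 0.095, adjusted p = 3.89e-05, edgeR), and the groups were separate. Rpt2, which in yeast helps to open the channel of the core, was the lowest. It had 5578, 6357 and 5803 in control and 8859, 9731 and 10036 in Nrf2 overexpression, a log2 fold change of 0.69 (SE 0.098, adjusted p = 0.000233, edgeR) with groups that again did not overlap.

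The Rpn genes encode the other subunits of the cap. All 12 were higher, with a median log2 fold change of 0.82, but they spread more widely than the other groups of subunits, from 0.42 to 1.01 with a standard deviation of 0.22. Toward the upper end were the ubiquitin receptors, along with other Rpn genes. Rpn13, a receptor attached to the base and encoded on chromosome 2R from 13958545 to 13960404, had 3406, 3724 and 3439 normalized counts in control and 6616, 7733 and 6951 in Nrf2 overexpression, a log2 fold change of 1.01 (SE 0.097, adjusted p = 2.69e-05, edgeR). Its lowest Nrf2 overexpression library was far above its highest control.

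Rpn10, the receptor that sits between base and lid, had 4094, 4305 and 3922 in control and 7225, 8464 and 8266 in Nrf2 overexpression, with a log2 fold change of 0.96 (SE 0.098, adjusted p = 3.69e-05, edgeR). Rpn1, a scaffold of the base that in yeast binds ubiquitin and the shuttle proteins that deliver substrates, had 6387, 6643 and 5969 in control and 10309, 12479 and 13034 in Nrf2 overexpression. Its log2 fold change was 0.91 (SE 0.11, adjusted p = 9.99e-05, edgeR). The 3 receptor genes thus lay close together, above the median of the Rpn genes. This place was not particular to them, since Rpn3 at 0.93, Rpn8 at 0.91 and Rpn2 at 0.88 were also above that median.

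At the lower end were lid subunits. Rpn11, the metalloprotease that removes ubiquitin chains from the substrate, had 4498, 5248 and 4966 in control and 6936, 7073 and 7310 in Nrf2 overexpression. Its log2 fold change was 0.54 (SE 0.094, adjusted p = 0.000807, edgeR), which is a fold of 1.45. Rpn6, which in yeast and mammals clamps the lid to the core, changed least. The gene lies on chromosome 2R from 14750166 to 14752910. It had 4484, 5108 and 4751 in control and 5849, 6648 and 6757 in Nrf2 overexpression, with a log2 fold change of 0.42 (SE 0.099, adjusted p = 0.00404, edgeR). Rpn7 and Rpn12, structural subunits of the lid singled out after their values were seen, both had a log2 fold change of 0.45, with control counts up to 4458 and 3791 and Nrf2 overexpression counts from 5440 and 4777.

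**Figure D2:**
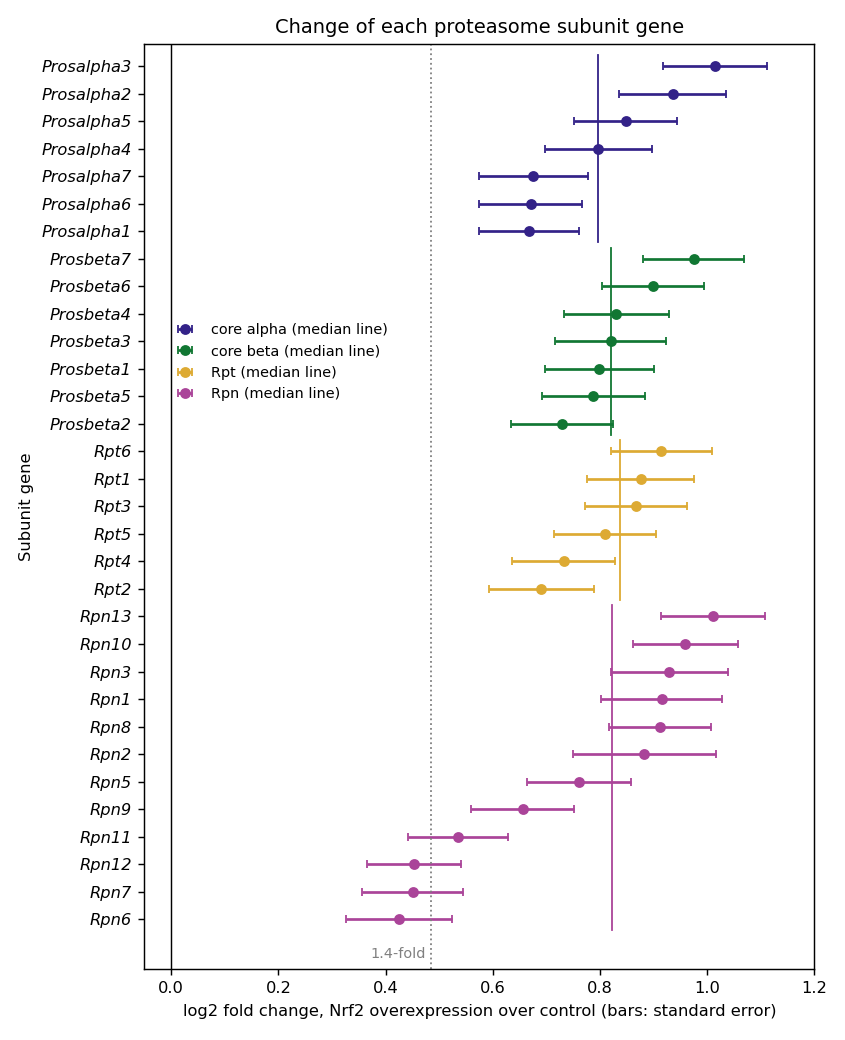
Log2 fold change of each subunit gene, Nrf2 overexpression over control, on the horizontal axis, with the genes on the vertical axis ordered within the core alpha, core beta, Rpt and Rpn groups. Points are estimates from the fit and bars their standard errors, coloured vertical lines mark group medians between 0.80 and 0.84, and the dotted line marks 1.4-fold, which Rpn6, Rpn7 and Rpn12 did not reach.

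The plot of the change of each subunit shows nearly equal group medians and a tail of low Rpn genes. This tail belonged to the lid. The 32 were also grouped by place in the particle, a grouping chosen after the data were seen, with Rpn10 kept apart. The median log2 fold change was 0.81 for the 14 core genes, 0.88 for the 9 genes of the base and 0.60 for the 8 of the lid. A further lid subunit, Sem1, is not among the 32 and is not in this median. Its log2 fold change was 0.84. After removal of the trend with exon length these medians were 1.12 for the core, 0.90 for the base and 0.73 for the lid. The order of core and base thus depends on whether length is corrected for, while the lid was lowest in both. Of the 8 lid genes, 5 passed 1.4-fold, whereas all genes of the core and the base did. Rpn6, Rpn7, Rpn12 and Rpn11 were the 4 lowest of the 32, and these same 4 were lowest in the main analysis and under each of the 16 other settings that were fitted. The lid was not uniform, since Rpn3 at 0.93 and Rpn8 at 0.91 were above the median of the 32, and Rpn5 at 0.76 and Rpn9 at 0.66 were below it. Rpn8 is the partner of Rpn11, and in control the ratio of Rpn8 to Rpn11 was 0.87, 0.80 and 0.77, against 0.99, 1.09 and 1.08 in Nrf2 overexpression. The ratio of Rpn13 to Rpn6 was 0.76, 0.73 and 0.72 in control and 1.13, 1.16 and 1.03 in Nrf2 overexpression. These pairs were chosen for their difference after the data were seen, so no test is given.

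Neighbours in the order of fold change lay close together, and the differences between them were not tested. With 32 values sorted between 0.42 and 1.01, small gaps were bound to be common, so they do not show how alike the genes were. The largest gap was 0.12, between Rpn11 and Rpn9. The 32 genes are spread over 5 chromosome arms, with 4 on 2L, 10 on 2R, 5 on 3L, 9 on 3R and 4 on X. The closest pair, Rpn9 and Rpt5, lay 19414 bases apart, and the next, Rpn12 and Prosbeta6, 25378 bases apart.

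The amount of each transcript was compared per length, as the normalized count per kilobase of exon. In control, Prosalpha2 was the highest with 5858 per kilobase, and the lowest was Rpn2 with 1756, so that the whole range covered 3.34-fold. In Nrf2 overexpression the range covered 3.46-fold, from 11203 for Prosalpha2 to 3239 for Rpn2. By median the core genes were above the cap genes per kilobase, with medians of 4943 for alpha, 4497 for beta, 3381 for Rpt and 2740 for Rpn in control. The corresponding medians in Nrf2 overexpression were 8100, 7943, 5974 and 4612. Longer genes had lower levels per kilobase (Spearman's rho = -0.82 across 32 genes in control), and the Rpn genes have the longest exon length by median, so subunit group and length cannot be told apart here.

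**Figure D3:**
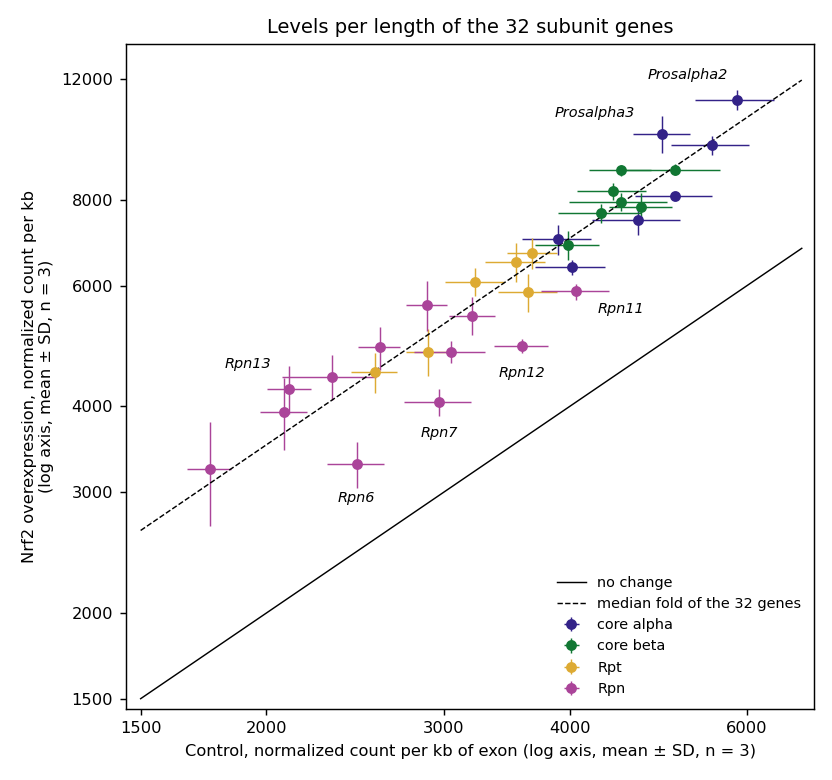
Level per length of the 32 subunit genes, with the normalized count per kilobase of exon in control on the horizontal axis and in Nrf2 overexpression on the vertical axis, both logarithmic. Points are means and bars SD of 3 libraries, the solid line marks no change and the dashed line the median fold of 1.76, below which Rpn6, Rpn7, Rpn12 and Rpn11 lie apart.

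The plot of levels per length shows that the order was largely kept. Across the 32 genes, Spearman's rho between the control and Nrf2 overexpression levels was 0.95. Counted from the highest, Rpn7 moved from place 23 to place 29, Rpn11 from place 12 to place 18 and Rpn10 from place 25 to place 20. The log2 fold change showed almost no relation to the control level per kilobase (rho = -0.09) or to exon length (rho = 0.04). These rank correlations are across genes measured in the same libraries, and genes are not independent replicates. Neighbours in this order commonly lay within their SD, for example Prosbeta1 at 5091 and Prosalpha6 at 5090 per kilobase in control. With the length of the longest transcript in place of the union of exons, the order was nearly the same (rho = 0.996).

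The libraries themselves moved the subunit genes together. As a log2 ratio to the control mean, the median of the 32 genes was -0.11, 0.10 and -0.01 in the control libraries and 0.74, 0.84 and 0.84 in the Nrf2 overexpression libraries. Control replicate 2 was the highest control for 31 of the 32 genes, the exception being Rpn2, with 6259, 6061 and 5657 normalized counts.

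In Nrf2 overexpression, replicate 1 was the lowest of its group for 26 genes. These were all 18 genes of the cap and 8 of the 14 of the core. The median log2 ratio of the Rpn genes was 0.62, 0.88 and 0.90 in the 3 Nrf2 overexpression libraries, whereas that of the beta genes was 0.83, 0.82 and 0.84. Rpn2, the long scaffold of the base and singled out after its values were seen, had 8835, 12138 and 12179 normalized counts. The library with less cnc had lower counts of the cap genes and like counts of the beta genes. That library also differed in how expression varied with exon length. The slope of the log2 ratio to the mean over all libraries per doubling of exon length was 0.0054 in replicate 1, against 0.15 and 0.16 in the others, and -0.039, -0.15 and -0.12 in control. The part of cnc and of length in this difference was not tested.

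Markers of other tissues also differed between libraries. All sums of markers are given here as read counts before normalization. The sum of the 6 fat body markers was 2407, 8418 and 211 in control and 1438, 1451 and 185 in Nrf2 overexpression, with control replicate 2 the highest. Of these markers, 1 of 6 was called lower. Without control replicate 2 all 32 subunit genes were still higher, with a median log2 fold change of 0.88. Of the adult muscle precursor markers, 3 of 3 were lower, with sums of 1876 to 2240 in control and 1216 to 1662 in Nrf2 overexpression. Of the tracheal markers, 2 of 3 were higher, with sums of 13745 to 15699 and 19957 to 25397. The wing disc markers were present in every library, with sums of 15971 to 19312 in control and 19222 to 23665 in Nrf2 overexpression for the 6 of 8 that were counted. Of these 6, 3 were called higher and 1 lower. Male germline markers summed to at most 17, and 4 of the 5 were at 0 in at least 1 library. The sums of muscle markers, 862 to 1578 and 670 to 2680, overlapped, as did those of haemocyte markers, 171 to 258 and 242 to 336. Of the muscle markers counted, 1 of 3 was called higher, Mhc with a log2 fold change of 1.92. Of the haemocyte markers, 1 of 4 was called higher, Pxn with 0.54. The part of these tissues in the subunit genes was not tested, and in bulk RNA more cells with high levels and more RNA per cell cannot be told apart.

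Reads of some subunit genes could be confused with those of other genes. Exons of 13 of the 32 genes overlap a gene on the opposite strand, by 1 to 182 bases and at most 13.0% of the exon length, and whether counting used strand is not given in the sources used here. Of the 14 overlapping genes, 2 were higher and 5 were lower. The median log2 fold change was 0.79 for the 13 overlapped subunit genes and 0.88 for the 19 others. Among the 16 paralogs left out, 13 had at most 3 counts in every library. The exceptions were Prosalpha1R, Rpt3R and Rpt6R. Rpt6R had 2, 3 and 2 counts in control and 3613, 4526 and 4148 in Nrf2 overexpression, while Rpt6 had at least 4207 counts in every control library. Rpt3R had 120, 121 and 127 counts in control and 982, 1172 and 1086 in Nrf2 overexpression.

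Other large complexes were set beside the proteasome as a description. The 7 chaperonin genes found by symbol (CCT1 to CCT7), whose products fold actin and tubulin, were all lower, with a median log2 fold change of -0.71. CCT8 was sought and not found by symbol. Of the 7, 6 were called lower when libraries were scaled by total counts and under some of the other settings. Of 82 genes tested with symbols of cytosolic ribosomal proteins, 47 were lower and 1 was higher, with a median of -0.37. Removal of the trend with exon length left 19 lower, 10 higher and a median of -0.03. The list by symbol takes in RpL7-like, RpL24-like, RpLP0-like and RpS28-like and may miss some ribosomal protein genes. The 47 became 52 when control replicate 1 was left out, 22 when control replicate 2 was and 21 when control replicate 3 was. They became 57 when Nrf2 overexpression replicate 1 was left out, 25 when replicate 2 of that group was and 29 when its replicate 3 was. The median stayed below 0 in each. Of 14 Vha genes tested, which encode the proton pump of lysosomes, 6 were higher and 2 were lower, with a median of 0.17, and over the alternatives 4 to 7 were higher and 1 to 3 lower. Among 413 other genes whose mean counts fell in the range of the subunit genes, 163 were higher and 133 lower, with a median of 0.11 that became -0.11 after the length trend was removed. The standard deviation of log2 fold changes was 0.16 over the 32 subunit genes and 0.44 over the Vha genes. It was 0.21 over the chaperonin genes, 0.35 over the ribosomal protein genes and 0.63 over the genes of like level. These lists are not alike, since the Vha and ribosomal protein genes were taken by symbol with any paralogs. Among paralogs left out of the 32, the log2 fold change was 0.68 for Prosalpha1R, 3.07 for Rpt3R and 10.6 for Rpt6R. With at least 10 counts in every library the ribosomal value was 0.25, and that of the 32 was 0.16. Without the length trend the values were 0.19 for the 32, 0.33 for Vha, 0.21 for chaperonin, 0.35 for ribosomal protein and 0.55 for like-level genes.

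**Figure D4:**
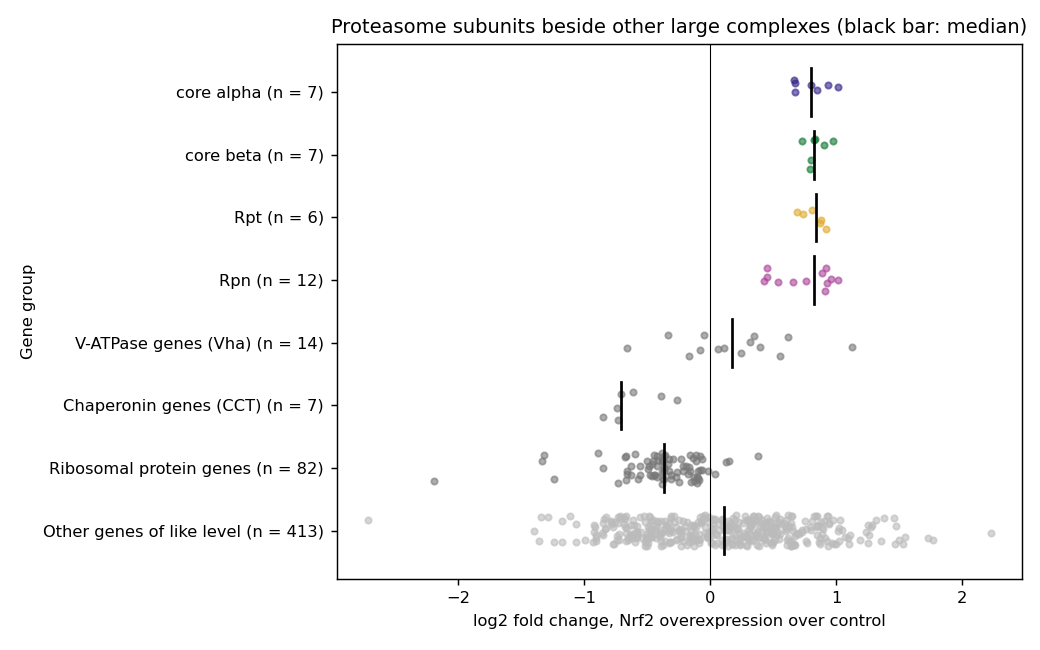
Log2 fold change, Nrf2 overexpression over control, on the horizontal axis for single genes in rows for the 4 groups of proteasome subunits, the Vha, CCT and cytosolic ribosomal protein genes and the 413 other genes of like level. Each point is a gene, vertical position within a row has no meaning and black bars are medians, and the subunit genes all lie between 0.42 and 1.01 while the other genes of like level lie on both sides of 0.

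The plot of single genes by complex shows the subunit genes in a narrow band to the right of 0. The genes in these families share libraries and were not tested against each other as sets.

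Genes that build, regulate or feed the proteasome were followed in a companion list of 24, of which 22 were counted. Of these 22, 14 were higher and 5 lower, and 3 were not called, with a median log2 fold change of 0.42. Over all genes tested 30.9% were higher and 31.6% lower, so genes called lower were not more common in this list. TER94 and PA200 were not analysed here. Sem1 and Pomp, which belong to the particle or assemble it, rose by as much as the subunits. Sem1, the smallest lid subunit, had 1879, 2141 and 2018 normalized counts in control and 3791, 3600 and 3385 in Nrf2 overexpression, a log2 fold change of 0.84 (SE 0.089, adjusted p = 4.66e-05, edgeR). Pomp, a chaperone of core assembly, had 3775, 4475 and 4166 in control and 8101, 8725 and 8324 in Nrf2 overexpression, a log2 fold change of 1.02 (SE 0.098, adjusted p = 2.69e-05, edgeR). Their groups did not overlap.

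CG12321 had the largest change of the list, with 1060, 1256 and 1114 in control and 3143, 3672 and 3133 in Nrf2 overexpression and a log2 fold change of 1.54. PI31, a regulator that binds the core, had a log2 fold change of 0.76, and Usp14, a deubiquitinase of the cap, one of 0.87. Rad23 and Ubqn, shuttles that carry ubiquitinated proteins to the proteasome, had log2 fold changes of 0.90 and 0.59. Npl4, a cofactor of the p97 ATPase that extracts ubiquitinated proteins, had 1992, 2135 and 1941 in control and 4819, 5496 and 4562 in Nrf2 overexpression, a log2 fold change of 1.29. Another p97 cofactor, p47, reached 0.49. Pngl, the N-glycanase that in mammals takes part in activating the related factor Nrf1, reached 0.85. All of these passed 1.4-fold and were called higher by edgeR.

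Smaller increases were called in Uba1 (0.48), which activates ubiquitin, in the p97 cofactor Ufd1-like (0.37), in the shuttle rngo (0.31) and in CG9588 (0.37). Among the genes called lower, sip3, the fly ortholog of the ubiquitin ligase Hrd1 of the endoplasmic reticulum, had 1578, 1349 and 1449 in control and 853, 904 and 1063 in Nrf2 overexpression, a log2 fold change of -0.63. RpS27A, a fusion of ubiquitin and a ribosomal protein, had 47355, 58607 and 57663 in control and 41834, 27649 and 33956 in Nrf2 overexpression, a log2 fold change of -0.66, and its call was lost after removal of the length trend (-0.22, adjusted p = 0.0754, edgeR). The other genes called lower were REG (-0.31), an alternative activator of the core, the polyubiquitin gene Ubi-p63E (-0.30) and CG12096 (-0.28). The call of REG was lost without control replicate 2 (adjusted p = 0.0876), control replicate 3 (0.0768) or Nrf2 overexpression replicate 3 (0.0555) in edgeR's test. That of Ubi-p63E was lost without control replicate 2 (adjusted p = 0.123), control replicate 3 (0.0819), Nrf2 overexpression replicate 2 (0.0797) or Nrf2 overexpression replicate 3 (0.0645) in the same test. Uch-L5, the deubiquitinase bound to Rpn13, was at 0.14 and was not called. The ubiquitin genes Ubi-p5E at -0.02 and RpL40 at -0.07 were not called either.

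**Figure D5:**
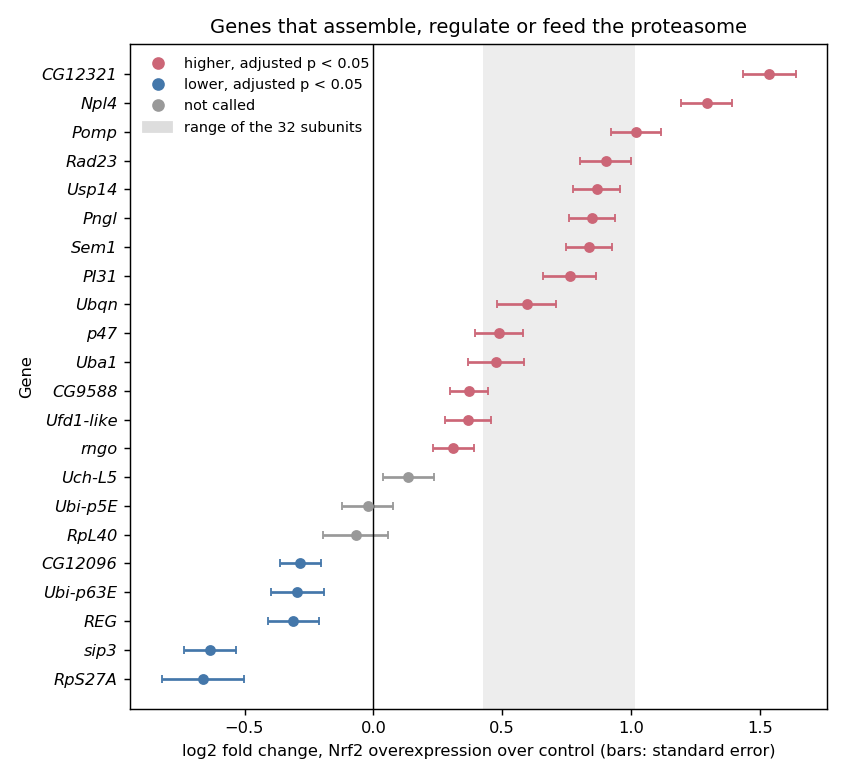
Log2 fold change, Nrf2 overexpression over control, on the horizontal axis for the 22 companion genes on the vertical axis, with standard errors as bars. Red marks genes called higher, blue lower and grey neither, the grey band covers the range of the 32 subunit genes from 0.42 to 1.01, and CG12321, Npl4 and Pomp lie beyond its upper edge.

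The plot of companion genes shows that many of them lay within or above the band of the subunits. The 4 ubiquitin genes lay at or below 0, although RpL40 was at 0.34 and called higher after the length trend was removed (adjusted p = 0.00216, edgeR).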

How the data were processed

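Total RNA of wing discs was extracted with RNeasy columns and libraries were prepared with a TruSeq kit, per the labels. The deposited files hold whole-number read counts per gene for each of the 6 libraries, and a table of the whole series with the same values was not used further. Per the submitters' processing notes, FastQC (version 0.11.5), Bowtie and the BDGP6 build were used by the authors. The counting program, its annotation and its use of strand are not given in the sources used here.

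Gene names and positions were taken from the Ensembl annotation of BDGP6.54, which held 13661 of the 13955 gene identifiers. The counts were analysed in R (version 4.3.3) with edgeR (version 4.0.16). Genes with low counts were removed with filterByExpr, libraries were scaled by TMM, and Nrf2 overexpression was compared with control by the two-sided quasi-likelihood test, without covariates. p-values were adjusted by the Benjamini-Hochberg method over all 8361 genes tested. A gene was called higher or lower at an adjusted p below 0.05, and standard errors were derived from the F statistic. Normalized counts are counts divided by the effective library size and multiplied by its mean over libraries. The code was tested on simulated counts with known changes. DESeq2 (version 1.42.0) and limma (version 3.58.1) served as alternatives.

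All 32 subunit genes are accounted for. Values per library are given for the highest and lowest gene of each group, the catalytic subunits, the ubiquitin receptors and Rpn11, and, from the companion list, genes that were called with a fold of at least 1.4 or at most its inverse are named. Within the set the 32 genes were taken by subunit identity, but the set itself and the other lists were chosen with earlier results of these data known. The marker genes ap, wg, wupA and btl and the companion genes TER94 and PA200 were not matched and are not analysed here. With 3 libraries in each group an exact permutation test of 1 value could not go below a two-sided p of 0.10.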

Additional observations from a re-analysis of the deposited data

How the results depend on the processing

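All 32 subunit genes were higher under each of the 17 alternatives, and the 513 values of single subunit genes all kept their direction and call. Between 28 and 31 passed 1.4-fold when a library was left out, and 2 passed 2-fold. The median log2 fold change of the 32 was 0.74 under upper-quartile normalization, which moved the median of all genes to -0.09, 0.98 after removal of the length trend, and 0.74 (without control replicate 1) to 0.88 (without control replicate 2) when a library was left out. For the alpha genes the median was 0.72 under upper-quartile normalization, 0.86 with total counts, 0.99 without the length trend and 0.72 to 0.85 when a library was left out. For the beta genes it was 0.75, 0.88 and 1.12 under the same 3 alternatives, 0.84 with DESeq2 size factors and with the DESeq2 Wald test, 0.83 without a filter and 0.73 to 0.89 when a library was left out. Without the length trend the Rpt median was 0.93, the Rpn median 0.78 and the standard deviation over the 32 genes 0.19, so the near-equal medians of the 4 groups hold only where length is not corrected for. The standard deviation was 0.15 to 0.17 when a library was left out.

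With the replicate number as a block, 32 subunit genes were higher with a median of 0.82. Correlations of the deviations of equal numbers were -0.21, 0.088 and 0.13, and those of unequal numbers ran from -0.30 to 0.21. Whether the numbers pair the libraries cannot be told from these values, since deviations within a group of 3 depend on each other. Of the cytosolic ribosomal protein genes, 23 were lower under the block, against 47. Companion genes called lower numbered 3 under the replicate block, 3 to 5 when a library was left out, and 2 at an adjusted p below 0.01, against 5. RpL40 was reversed to 0.34 after removal of the length trend. Of 865 values of single genes, 10 lost their call, all of REG, Ubi-p63E or RpS27A, and 1, Uch-L5, gained one. The cause was not tested. The planned count of antioxidant response element letters in promoters was not run, as no promoter sequence was used here. Differences between single subunit genes were not tested. The standard errors belong to the change of each gene between groups of 3 libraries and do not measure differences between genes.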
